A study of Mus musculus with 4 samples.

Results

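Collagens are the triple-helical proteins of the extracellular matrix, and fibroblasts are among their main makers. Fibrillar collagens build the fibres that carry tension, network collagens form basement membranes, beaded-filament collagens link cells to fibres, and the fibril-associated collagens with interrupted helices (FACITs) decorate the fibre surface. Each molecule holds 3 chains, which are the products of 1 gene or of several. The collagen genes were taken by symbol, as the protein-coding genes in GENCODE M21 whose whole name is Col, digits, a and digits. The rule found 44 genes among 55573 in the files, and 28 of them reached 1 FPKM (a fragment count scaled to gene length and library size) in at least 1 of 4 libraries. The rule itself used no difference between libraries, but the collagen genes were taken up with earlier results of these data known.

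The libraries came from MEFs, that is fibroblasts of mouse embryos in primary culture, in a study of how the kinase DYRK2 acts on Hedgehog signalling. The 4 groups were Dyrk2-KO fibroblasts, WT fibroblasts, WT fibroblasts given an siRNA against Dyrk2 (siDyrk2) and WT fibroblasts given a negative-control siRNA (siNeg). All 4 had received 100 nM SAG, an agonist of Smoothened that turns Hedgehog signalling on, for 24 h, so nothing here describes cells without SAG. Each group held 1 library, the labels do not say whether cultures came from separate embryos, and every difference below is between libraries with no replicate check and no p-value. The siNeg library served as control for siDyrk2 and was itself compared with WT, so the comparisons siNeg against WT and Dyrk2-KO against WT share the WT library and the comparisons siDyrk2 against siNeg and siNeg against WT share the siNeg library.

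The libraries matched their labels at the targeted gene, and the Hedgehog target Gli1 was low where Dyrk2 was. Dyrk2 was at 0.57 FPKM in the Dyrk2-KO library and 6.59 in WT, and at 0.81 with siDyrk2 and 7.06 with siNeg. Gli1 was at 0.24 FPKM in the Dyrk2-KO library and 28.8 in WT, and at 2.25 with siDyrk2 and 30.2 with siNeg. Estimated depth ran from 20.0 to 23.9 M fragments (M for 1e+06), and 11939 to 12106 genes reached 1 FPKM. All 9 fibroblast markers were measured, with a summed level of 2106 to 2356 FPKM over the 4 libraries. Single markers moved within that sum. On FPKM + 1, 2 were at least 1.5-fold higher (Lum and Dcn) and 1 lower (Thy1) in the Dyrk2-KO library than in WT. The shares of all genes were 2.58% and 4.04%. With siDyrk2 against siNeg 2 were higher (Vim and Pdgfrb) and 0 lower, where 3.77% and 2.73% of all genes were. Of markers of other collagen makers, 1 of 8 for chondrocytes (Sox9, 3.95 to 4.27 FPKM), 1 of 7 for osteoblasts (Runx2, 2.05 to 3.18) and 1 of 7 for endothelial cells (Tek, 2.55 to 4.63) reached 1 FPKM. The cartilage proteoglycan Acan stayed at or under 0.03 FPKM, the osteoblast factor Sp7 at or under 0.06 and the endothelial adhesion gene Pecam1 at or under 0.05, and 0 of 5 epithelial and 0 of 5 Schwann cell markers reached 1 FPKM. Macrophage markers were present (6 of 7 measured), with a summed level of 434 FPKM in the Dyrk2-KO library, 209 in WT, 289 with siDyrk2 and 233 with siNeg. Mesothelial markers (3 of 4 measured) summed to 6.30 FPKM in the Dyrk2-KO library, 3.95 in WT, 7.51 with siDyrk2 and 5.95 with siNeg. Skeletal muscle markers (2 of 6 measured) summed to 2.19 FPKM in the Dyrk2-KO library, 3.19 in WT, 7.53 with siDyrk2 and 2.48 with siNeg. The 6 genes of dividing cells summed to 23.9 FPKM in the Dyrk2-KO library, 68.0 in WT, 84.9 with siDyrk2 and 100.0 with siNeg. The Y-linked gene Ddx3y was at 8.28 FPKM in the Dyrk2-KO library and at or under 0.02 in the others. The part of these differences in the collagen values was not tested. In bulk RNA, fewer cells of a type and less RNA per cell cannot be told apart.

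Collagen transcripts made up a large share of every library, and the share was lowest with siDyrk2. The 44 genes took 3.61% of the summed FPKM in the Dyrk2-KO library and 3.56% in WT, and 2.66% with siDyrk2 against 3.49% with siNeg. Counted as fragments, where long genes weigh more, the shares were 8.03% (95% exact binomial interval 8.02 to 8.04) in the Dyrk2-KO library and 7.73% (7.72 to 7.75) in WT, and 5.99% (5.98 to 6.00) with siDyrk2 against 7.54% (7.53 to 7.55) with siNeg. These intervals cover counting error only. The fibrillar class alone took 2.99% of summed FPKM in the Dyrk2-KO library, 2.85% in WT, 1.99% with siDyrk2 and 2.77% with siNeg, so most of the gap between siDyrk2 and siNeg lay in this class.

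**Figure D1:**
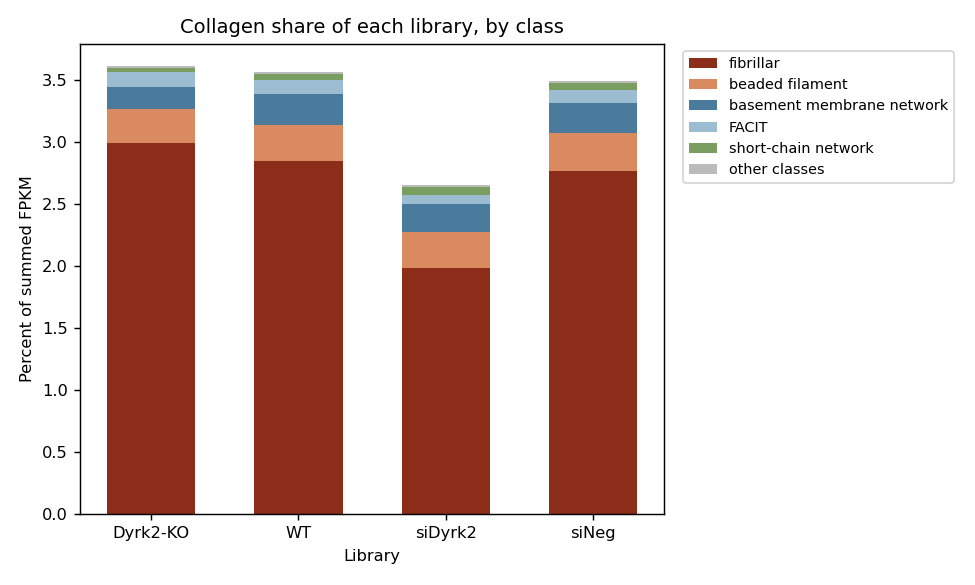
Percent of each library's summed FPKM that came from collagen genes (vertical axis), stacked by class for the Dyrk2-KO, WT, siDyrk2 and siNeg libraries (horizontal axis), 1 library per bar. The siDyrk2 bar ends at 2.66%, below the 3.49% of siNeg, while the Dyrk2-KO and WT bars end at 3.61% and 3.56%.

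Levels ran over more than 3 orders of magnitude. Col1a1, the main chain of type I collagen, was the gene with the second highest FPKM in the Dyrk2-KO, WT and siNeg libraries and ranked at 5 with siDyrk2. Of the 28 reported genes 11 had a mean of at least 100 FPKM, 19 reached 10 FPKM in some library and 25 reached 1 FPKM in every library. The other 3 passed 1 FPKM in the Dyrk2-KO library alone: Col6a6 (1.34 FPKM), Col2a1 (1.20) and Col26a1 (1.01). The cartilage collagen Col2a1 was at 0.90 FPKM in WT, 0.60 with siDyrk2 and 0.55 with siNeg, and Col26a1 was at 0.56 in WT, 0.66 with siDyrk2 and 0.59 with siNeg. Since that is how they entered, their higher Dyrk2-KO values say nothing beyond the filter. Just under the line were Col28a1 (0.82 FPKM in its highest library), Col9a2 (0.74) and Col11a2 (0.71). The 16 genes under 1 FPKM had highest values of 0.06 to 0.82 FPKM, among them the cartilage chains Col9a1, Col9a2, Col9a3 and Col11a2 and the kidney and lung basement membrane chains Col4a3 and Col4a4. The rest were Col4a6, Col6a4, Col6a5, the epithelial Col17a1, Col13a1, Col25a1, Col19a1, Col20a1, Col22a1 and Col28a1.

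**Figure D2:**
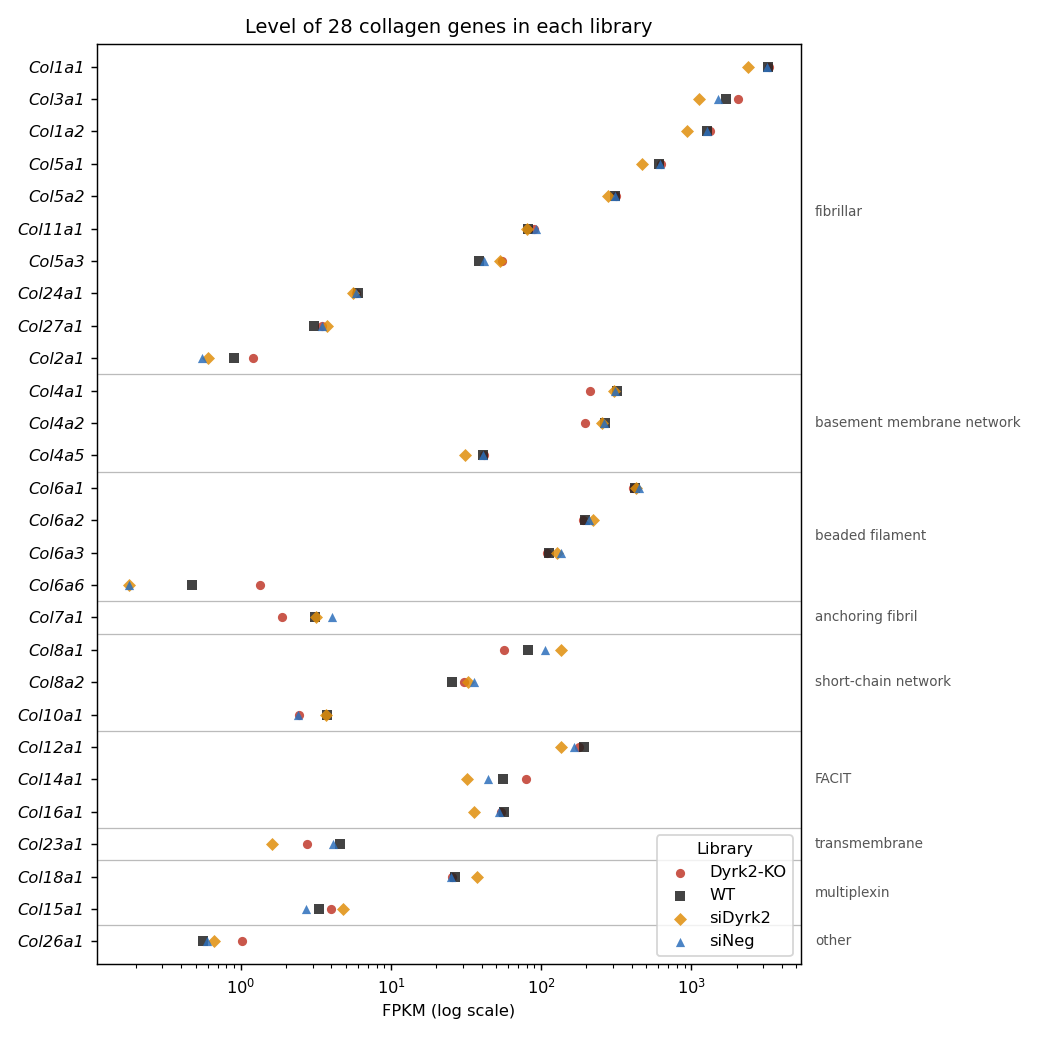
FPKM of the 28 reported collagen genes (log horizontal axis), grouped by class down the page, with 1 symbol per library. The siDyrk2 symbol stands to the left for Col1a1, Col3a1, Col1a2 and Col5a1, and the Dyrk2-KO symbol to the left for Col4a1 and Col4a2.

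As a group, the collagen genes differed little for Dyrk2-KO against WT and leaned lower with siDyrk2, and the larger differences lay in particular chains. On the log2(FPKM + 1) scale the 28 genes had a median ratio of 0.02 for Dyrk2-KO against WT (-0.044 over the 25 genes at 1 FPKM in every library), where all 12817 genes with at least 1 FPKM in any library had -0.02. For siDyrk2 against siNeg the medians were -0.07 for the collagen genes (-0.14 over the same 25 genes) and 0.02 for all genes. For siNeg against WT both medians were -0.01. Of the 28 genes 13 were lower in the Dyrk2-KO library and 18 with siDyrk2, against 7127 and 5768 of the 12817 genes. No collagen gene was 2-fold different on that scale in any of the 3 comparisons, against 1.78% of all genes for Dyrk2-KO against WT, 1.54% for siDyrk2 against siNeg and 0.928% for siNeg against WT. Without the pseudocount the weakly expressed Col6a6 was 2.85-fold higher in the Dyrk2-KO library than in WT, and 2.61-fold lower with siNeg than in WT. Col23a1 was 2.54-fold lower with siDyrk2 than with siNeg. At 1.5-fold, 1 collagen gene was higher (2.58% of all genes) and 1 lower (4.04%) in the Dyrk2-KO library. With siDyrk2 likewise 1 was higher (3.77%) and 1 lower (2.73%), and with siNeg against WT 0 were higher (1.41%) and 0 lower (2.37%). These counts are close to the background, and the gene higher in the Dyrk2-KO library, Col6a6, is one of the 3 that passed 1 FPKM there alone.

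A smaller fold was added after the values were seen. At 1.25-fold, 4 of 28 collagen genes were higher and 6 lower in the Dyrk2-KO library, against 7.76% and 9.99% of all genes. Of the 4 higher genes, Col6a6 and Col26a1 entered through the Dyrk2-KO library alone. Over the 25 genes at 1 FPKM in every library 2 were higher and 6 lower, against 697 and 911 of the 11296 genes passing that filter. With siDyrk2 5 were higher and 8 lower, against 13% and 8.85% of all genes. With siNeg against WT 2 were higher and 2 lower, against 6.62% and 9.42%. Between Dyrk2-KO against WT and siDyrk2 against siNeg, which share no library, 9 genes were lower in both, 5 higher in both, 9 higher in the Dyrk2-KO library and lower with siDyrk2, and 4 the reverse. The 5 include Col2a1 and Col26a1. Col6a6 was at 0.18 FPKM in both siRNA libraries. The same counts of shared and opposite direction were not made over all genes, so they cannot be read as particular to collagen genes.

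**Figure D3:**
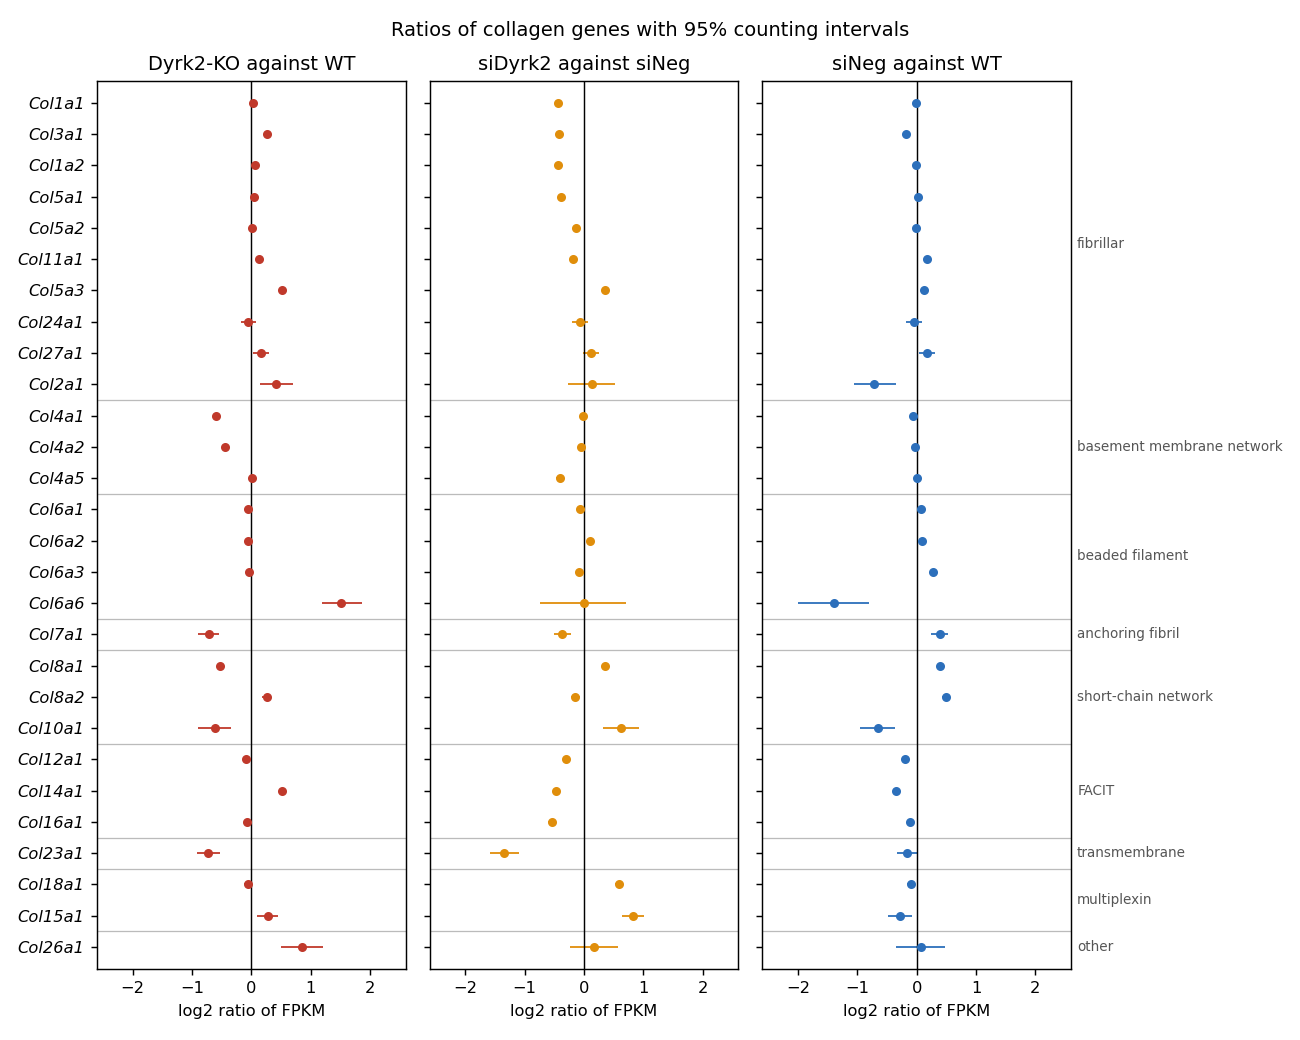
Log2 ratio of FPKM (horizontal axis, no pseudocount) of the 28 collagen genes, grouped by class down the page, for Dyrk2-KO against WT (left), siDyrk2 against siNeg (middle) and siNeg against WT (right). Points are single ratios between 2 libraries, and bars are 95% counting intervals, which do not cover differences between cultures. The 4 most abundant fibrillar genes lie left of 0 in the middle panel, and Col4a1 and Col4a2 in the left one.

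The major fibrillar collagens were lower with siDyrk2 and not lower in the Dyrk2-KO library. Type I collagen, the main protein of skin, bone and tendon, is built from Col1a1 and Col1a2. Col1a1 (ENSMUSG00000001506, chromosome 11 at 94936224 to 94953042, GRCm38) was at 3276 FPKM in the Dyrk2-KO library and 3233 in WT, and at 2377 FPKM with siDyrk2 and 3208 with siNeg. Col1a2 (chromosome 6 at 4504814 to 4541544) was at 1332 FPKM in the Dyrk2-KO library and 1274 in WT, and at 932 with siDyrk2 and 1265 with siNeg. The siDyrk2 library was the low one for both genes, and the other 3 lay close together. With siDyrk2 Col1a1 stood at 0.741 of its siNeg level (95% counting interval 0.738 to 0.744) and Col1a2 at 0.737 (0.733 to 0.740).

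Type III collagen, a homotrimer of Col3a1 that forms fibres with type I, was lower with siDyrk2 too, but also varied among the other libraries. Col3a1 (chromosome 1 at 45311538 to 45349706) was at 2038 FPKM in the Dyrk2-KO library and 1707 in WT, and at 1130 with siDyrk2 and 1505 with siNeg. Its siDyrk2 level was 0.751 of siNeg (0.747 to 0.755), its Dyrk2-KO level 1.19 times WT (1.19 to 1.20) and its siNeg level 0.882 of WT (0.878 to 0.886). Both controls thus differed for Col3a1 by a part of the difference seen with siDyrk2, while for Col1a1 and Col1a2 they were within 1.01-fold of each other.

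Type V collagen sits inside type I fibres and sets their width, and its chains differed unequally. Col5a1 was at 625 FPKM in the Dyrk2-KO library and 605 in WT, and at 471 with siDyrk2 and 618 with siNeg. Col5a2, which lies next to Col3a1 on chromosome 1, was at 315 FPKM in the Dyrk2-KO library and 311 in WT, and at 279 with siDyrk2 and 308 with siNeg. The siDyrk2 level was thus 0.762 of siNeg for Col5a1 and 0.908 for Col5a2. Col5a3, a less abundant chain, went the other way and was higher after both ways of losing Dyrk2. It was at 54.7 FPKM in the Dyrk2-KO library and 38.5 in WT (1.42-fold, 1.38 to 1.47), and at 53.5 with siDyrk2 and 41.9 with siNeg (1.28-fold, 1.23 to 1.32).

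Among the other fibrillar genes, Col11a1, whose product copolymerises with types II and V, was at 89.7 FPKM in the Dyrk2-KO library and 81.9 in WT, and at 81.0 with siDyrk2 and 92.1 with siNeg. Col24a1 and Col27a1 stayed between 3.07 and 6.05 FPKM in all libraries, with log2 ratios no further from 0 than 0.13, and Col2a1 is among the genes that passed 1 FPKM in the Dyrk2-KO library alone. Over the 9 fibrillar genes at 1 FPKM in every library, which leaves out Col2a1, the median log2 ratio was 0.06 for Dyrk2-KO against WT (8 higher, 1 lower), -0.18 for siDyrk2 against siNeg (2 higher, 7 lower) and -0.01 for siNeg against WT (4 higher, 5 lower). Over all 11296 genes passing that filter, 4911 were higher and 6336 lower for Dyrk2-KO against WT. The numbers were 6137 and 5110 for siDyrk2 against siNeg, and 5536 and 5714 for siNeg against WT. Several of the 8 higher Dyrk2-KO ratios were close to 0, such as 0.02 for Col1a1 and Col5a2 and 0.05 for Col5a1.

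Among abundant genes a lower value of this size was uncommon. Of 354 genes with a mean of at least 100 FPKM, 16 were at least 1.25-fold lower with siDyrk2 (4.52%), and 4 of those 16 were collagen genes: Col1a1, Col1a2, Col3a1 and Col5a1, out of 11 collagen genes at that level. In the same set 14.7% were at least 1.25-fold higher with siDyrk2, 0 of them collagen genes, and the median log2 ratio was 0.13 for the 354 genes and -0.14 for the 11 collagen genes. For Dyrk2-KO against WT 21 of the 354 genes were lower (5.93%), and 2 of them were collagen genes, Col4a1 and Col4a2, while 10.2% were higher, 0 of them collagen genes. For siNeg against WT 20 genes were lower (5.65%) and 15 higher (4.24%), with 0 collagen genes in either direction. The fold and the level of this count were chosen after the values were seen.

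The 250 bases before and 50 after the RefSeq start of Col1a2 and Col3a1 are shown, as promoters of genes that were lower together with siDyrk2 (RefSeq, GRCm38.p6, 5′ to 3′). Capitals mark the motifs searched on both strands, namely the CCAAT box (CCAAT), the TATA box (TATAAA), the GC box (GGGCGG) and the consensus of the Hedgehog effectors, the GLI factors (GACCACCCA).
Col1a2 (chr6:4505368-4505667, plus strand): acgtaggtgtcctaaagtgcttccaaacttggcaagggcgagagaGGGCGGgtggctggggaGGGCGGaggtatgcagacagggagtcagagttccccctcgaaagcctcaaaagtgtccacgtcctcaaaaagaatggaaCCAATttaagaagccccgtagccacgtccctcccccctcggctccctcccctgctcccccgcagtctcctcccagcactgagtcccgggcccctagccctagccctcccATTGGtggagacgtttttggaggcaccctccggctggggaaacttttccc
Col3a1 (chr1:45311288-45311587, plus strand): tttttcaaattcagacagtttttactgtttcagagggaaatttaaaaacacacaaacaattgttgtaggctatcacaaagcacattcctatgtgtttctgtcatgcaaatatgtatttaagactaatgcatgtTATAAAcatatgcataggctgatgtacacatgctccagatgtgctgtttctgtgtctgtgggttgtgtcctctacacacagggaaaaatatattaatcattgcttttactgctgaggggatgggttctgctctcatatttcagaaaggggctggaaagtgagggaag
Counting the RefSeq start as base 1, the Col1a2 window held CCAAT boxes at -109 and, on the other strand, at 1, and GC boxes at -205 and -188. GENCODE places the first base of Col1a2 upstream of this window. The Col3a1 window held a TATA box at -117 and no CCAAT or GC box. The GLI consensus was in neither, and in 0 windows of the 22 reported collagen genes that had one. Over all 32851 windows 0.253% held it. CCAAT boxes were in windows of 9 of the 22 collagen genes and in 37.4% of all windows, TATA boxes in 2 of 22 and in 13.6%, and GC boxes in 16 of 22 and in 35.7%. A match is a run of letters, and its absence says only that these letters are not in that window.

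The main basement membrane genes were lower in the Dyrk2-KO library and not with siDyrk2. Type IV collagen forms the sheet under epithelia and around vessels and muscle, and its common form holds 2 chains from Col4a1 and 1 from Col4a2. Col4a1 (chromosome 8 at 11198423 to 11312826) was at 212 FPKM in the Dyrk2-KO library and 322 in WT, and at 306 with siDyrk2 and 310 with siNeg. Col4a2 (chromosome 8 at 11312805 to 11449287) was at 197 FPKM in the Dyrk2-KO library and 268 in WT, and at 253 with siDyrk2 and 262 with siNeg. For both genes the Dyrk2-KO library was the low one, and the other 3 lay within a narrow range. The Dyrk2-KO level was 0.661 of WT for Col4a1 (0.652 to 0.669) and 0.736 for Col4a2 (0.725 to 0.747), while the siDyrk2 level was 0.988 and 0.966 of siNeg. Col4a1 was the gene at least 1.5-fold lower on FPKM + 1, at a log2 ratio of -0.60, and fell short of that fold at -0.57 when the libraries were rescaled to an equal median.

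Col4a1 and Col4a2 are read outward from a shared promoter, and their windows are shown because both genes were lower together in the Dyrk2-KO library. Capitals mark the 78 bases that both windows share (GRCm38.p6, 5′ to 3′ on each gene's own strand).
Col4a1 (chr8:11312777-11313076, minus strand): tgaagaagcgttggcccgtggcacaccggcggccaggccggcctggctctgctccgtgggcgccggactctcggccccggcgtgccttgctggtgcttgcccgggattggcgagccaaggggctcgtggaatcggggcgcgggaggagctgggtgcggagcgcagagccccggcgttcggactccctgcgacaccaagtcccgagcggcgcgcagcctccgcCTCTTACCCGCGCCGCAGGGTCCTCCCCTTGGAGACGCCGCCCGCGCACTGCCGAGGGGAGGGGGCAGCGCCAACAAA
Col4a2 (chr8:11312555-11312854, plus strand): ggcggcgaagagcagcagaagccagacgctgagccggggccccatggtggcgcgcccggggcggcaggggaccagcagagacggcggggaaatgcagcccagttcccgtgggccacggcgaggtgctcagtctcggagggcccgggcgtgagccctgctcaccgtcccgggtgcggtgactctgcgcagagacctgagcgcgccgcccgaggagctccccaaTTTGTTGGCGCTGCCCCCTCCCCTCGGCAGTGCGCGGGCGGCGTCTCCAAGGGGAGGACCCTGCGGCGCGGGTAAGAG
In GENCODE the 2 genes overlap by 22 bases on opposite strands, a small part of exonic lengths of 7464 and 6619 bases. Each window held 1 CCAAT box, and neither held a TATA box. The windows held 74.0% and 73.7% G and C.

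Col4a5, an X-linked type IV chain of other basement membranes, was lower with siDyrk2 and not in the Dyrk2-KO library. It was at 41.5 FPKM in the Dyrk2-KO library and 41.1 in WT, and at 31.0 with siDyrk2 and 41.2 with siNeg, which put siDyrk2 at 0.754 of siNeg (0.725 to 0.784). Markers of endothelial cells, which make type IV collagen in tissue, were low in every library (summed level 5.07 FPKM in the Dyrk2-KO library, 5.31 in WT, 3.47 with siDyrk2 and 5.28 with siNeg), and 1 of 7 reached 1 FPKM. Smooth muscle and pericyte markers, which include genes that fibroblasts also express, summed to 512 FPKM in the Dyrk2-KO library, 830 in WT, 1699 with siDyrk2 and 995 with siNeg. They were lowest in the library where Col4a1 and Col4a2 were lowest. They were highest with siDyrk2, where Col4a1 and Col4a2 stood at 0.988 and 0.966 of siNeg. The part of these markers in the Col4a1 and Col4a2 values was not tested.

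The 3 main type VI genes differed little in both Dyrk2 comparisons. Type VI collagen forms beaded filaments close to the cell surface from the products of Col6a1, Col6a2 and Col6a3. Col6a1 was at 409 FPKM in the Dyrk2-KO library and 424 in WT, and at 427 with siDyrk2 and 445 with siNeg. Col6a2 was at 188 FPKM in the Dyrk2-KO library and 195 in WT, and at 221 with siDyrk2 and 207 with siNeg. Col6a3 was at 108 FPKM in the Dyrk2-KO library and 112 in WT, and at 128 with siDyrk2 and 136 with siNeg, so both siRNA libraries lay above both others, with siNeg at 1.22 times WT. The Dyrk2-KO levels of the 3 genes were 0.963 to 0.970 of WT. Col6a6, an alternative chain, was at 1.34 FPKM in the Dyrk2-KO library and 0.47 in WT, and was the gene at least 1.5-fold higher on FPKM + 1. It passed 1 FPKM in the Dyrk2-KO library alone, so its higher value there says nothing beyond the filter. It stood at 269 estimated fragments in the Dyrk2-KO library and 103 in WT, and the call ended with a pseudocount of 5 FPKM.

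Type VIII collagen, a short-chain network collagen of vessels and of the cornea, showed opposite directions. Col8a1 (chromosome 16 at 57624258 to 57754737) was at 56.3 FPKM in the Dyrk2-KO library and 81.0 in WT (0.695 of WT, 0.678 to 0.713), and at 135 with siDyrk2 and 106 with siNeg (1.28-fold, 1.25 to 1.30). It was also 1.31 times higher with siNeg than in WT, a difference between both controls as large as that with siDyrk2. Col8a2 was at 30.4 FPKM in the Dyrk2-KO library and 25.4 in WT, and at 32.3 with siDyrk2 and 35.7 with siNeg. Col10a1, known as a marker of hypertrophic cartilage, was at 2.45 FPKM in the Dyrk2-KO library and 3.77 in WT, and at 3.69 with siDyrk2 and 2.40 with siNeg. Its siDyrk2 level was thus close to WT, and siNeg was the low library of that pair. Nt5dc1, which lies on the opposite strand across Col10a1, reached 3.36 FPKM, and the sources used here do not state whether counting used strand.

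The 3 measured fibril-associated collagens, out of 9 in the files, were lower with siDyrk2, as were 5768 of all 12817 genes. All 3 were also lower with siNeg than in WT, as were 6533 of all genes. Col12a1, which binds type I fibres under load, was at 179 FPKM in the Dyrk2-KO library and 191 in WT, and at 135 with siDyrk2 and 166 with siNeg. Col16a1 was at 53.7 FPKM in the Dyrk2-KO library and 56.6 in WT, and at 35.6 with siDyrk2 and 52.1 with siNeg (0.684 of siNeg, 0.660 to 0.709). Col14a1 (chromosome 15 at 55307750 to 55520803), which is abundant in mature connective tissue, was highest in the Dyrk2-KO library and lowest with siDyrk2. It was at 79.5 FPKM in the Dyrk2-KO library and 55.8 in WT (1.42-fold, 1.39 to 1.46), and at 31.8 with siDyrk2 and 44.0 with siNeg (0.724 of siNeg, 0.697 to 0.751). The siNeg library stood at 0.788 of WT for this gene. The class median was -0.07 for Dyrk2-KO against WT and -0.45 for siDyrk2 against siNeg, over 3 genes, and -0.20 for siNeg against WT.

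The transmembrane gene Col23a1 had the lowest siDyrk2 ratio of the 28 genes and was lower in the Dyrk2-KO library too. Its product is a cell-surface collagen that can be shed. Col23a1 (ENSMUSG00000063564, chromosome 11 at 51289920 to 51583918) was at 2.77 FPKM in the Dyrk2-KO library and 4.60 in WT, a level of 0.602 of WT (0.528 to 0.689). It was at 1.62 FPKM with siDyrk2 and 4.11 with siNeg, a level of 0.394 (0.333 to 0.467). Both libraries with Dyrk2 lost lay below both controls, which stood at 0.893 of each other. With 348 estimated fragments in the Dyrk2-KO library, 631 in WT, 200 with siDyrk2 and 471 with siNeg, the gene was weakly expressed. Its siDyrk2 log2 ratio on FPKM + 1 was -0.96, the one collagen gene at least 1.5-fold lower there, and the call ended with a pseudocount of 5 FPKM. Col7a1, which encodes the anchoring fibrils of skin, was at 1.88 FPKM in the Dyrk2-KO library and 3.10 in WT, and at 3.16 with siDyrk2 and 4.07 with siNeg. The siDyrk2 level of Col7a1 thus equalled that of WT within 0.06 FPKM.

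The multiplexins, basement membrane proteoglycans with a collagen core, were higher with siDyrk2. Col18a1, the precursor of endostatin, was at 25.4 FPKM in the Dyrk2-KO library and 26.5 in WT, and at 37.3 with siDyrk2 and 24.9 with siNeg, a log2(FPKM + 1) ratio of 0.56 (counting interval of the fold 1.44 to 1.56). Col15a1 was at 4.00 FPKM in the Dyrk2-KO library and 3.30 in WT, and at 4.80 with siDyrk2 and 2.71 with siNeg (1.77-fold, 1.55 to 2.02). Col15a1 was the one collagen gene at least 1.5-fold higher on FPKM + 1 with siDyrk2, and the call ended with a pseudocount of 5 FPKM. Its siNeg level was 0.821 of WT.

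Chains that assemble together kept nearly the same ratio in type I. The ratio of Col1a1 to Col1a2 FPKM was 2.46 in the Dyrk2-KO library and 2.54 in WT, and 2.55 with siDyrk2 and 2.54 with siNeg, so the lower type I level with siDyrk2 left the ratio in place. The type I protein holds 2 chains of the first gene to 1 of the second, but the RNA ratio cannot be read against that. Its level depends on the exonic lengths used, 6563 bases for Col1a1 and 12426 for Col1a2. Col4a1 to Col4a2 was at 1.08 in the Dyrk2-KO library (95% counting interval 1.06 to 1.10) and 1.20 in WT (1.19 to 1.22), and at 1.21 with siDyrk2 and 1.19 with siNeg.

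Other pairs differed more between libraries. Col3a1 to Col1a1 was 0.622 in the Dyrk2-KO library and 0.528 in WT, and 0.475 with siDyrk2 and 0.469 with siNeg, so that the Dyrk2-KO library had the most type III per type I and the siRNA pair differed little. Col5a1 to Col5a2 was 1.99 in the Dyrk2-KO library and 1.95 in WT, and 1.69 with siDyrk2 and 2.01 with siNeg. Col5a3 to Col5a2 was 0.174 in the Dyrk2-KO library and 0.124 in WT, and 0.192 with siDyrk2 and 0.136 with siNeg, higher in both libraries with Dyrk2 lost. Col4a5 to Col4a1 was 0.195 in the Dyrk2-KO library and 0.128 in WT, and 0.101 with siDyrk2 and 0.133 with siNeg, the opposite direction in each comparison. Col6a1 to Col6a2 was 2.17 in the Dyrk2-KO library and 2.17 in WT, and 1.93 with siDyrk2 and 2.16 with siNeg. Col8a1 to Col8a2 was 1.86 in the Dyrk2-KO library and 3.19 in WT, and 4.19 with siDyrk2 and 2.97 with siNeg. A ratio within a library does not depend on how the library was scaled.

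**Figure D4:**
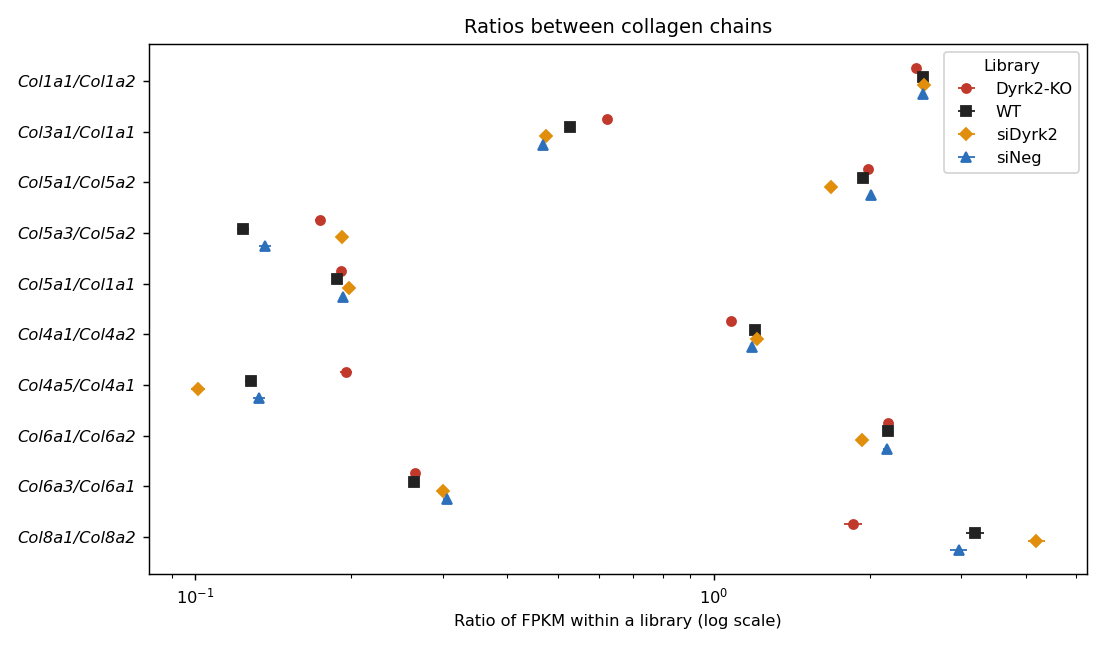
Ratio of FPKM between pairs of collagen genes within each library (log horizontal axis), with 1 symbol per library and 95% counting intervals as bars. The 4 symbols of Col1a1/Col1a2 lie between 2.46 and 2.55, while those of Col8a1/Col8a2 spread from 1.86 to 4.19.

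The genes that make, bind and break down collagen went both ways with siDyrk2. Of 15 modifying enzymes, which hydroxylate and glycosylate the chains, 14 were measured, with medians of 0.07 for Dyrk2-KO against WT (9 higher) and 0.03 for siDyrk2 against siNeg (10 higher). Their neighbours in folding and export, including the collagen chaperone Serpinh1, had medians of 0.01 in both over 9 genes (6 higher and 3 lower for Dyrk2-KO against WT, 5 higher and 4 lower for siDyrk2 against siNeg). For siNeg against WT the medians were larger, at 0.15 for the modifying enzymes (10 higher) and 0.12 for folding and export (6 higher, 3 lower). Of all 12817 genes, 5607 were higher for Dyrk2-KO against WT, 6963 for siDyrk2 against siNeg and 6193 for siNeg against WT. The galactosyltransferase Colgalt1 was at 66.7 FPKM in the Dyrk2-KO library and 67.6 in WT, and at 53.0 with siDyrk2 and 75.5 with siNeg, a lower siDyrk2 level like that of the major fibrillar genes. Serpinh1 was at 1374 FPKM in the Dyrk2-KO library and 1307 in WT, and at 1459 with siDyrk2 and 1532 with siNeg. No gene of either list reached 1.5-fold on FPKM + 1 in any of the 3 comparisons. The 5 measured of 10 propeptide-removal genes had medians of 0.16 for Dyrk2-KO against WT and 0.02 for siDyrk2 against siNeg, and the 5 lysyl oxidases, which crosslink fibres, of -0.11 and 0.15. On FPKM + 1, 0 genes of these lists reached 1.5-fold in the Dyrk2 comparisons, and 1 of each did for siNeg against WT. Adamts2, the amino-propeptide proteinase of fibrillar collagens, was at 30.4 FPKM in the Dyrk2-KO library and 25.2 in WT, and at 16.2 with siDyrk2 and 15.1 with siNeg. The lysyl oxidase Loxl4 was at 2.70 FPKM in the Dyrk2-KO library and 4.16 in WT, and at 5.21 with siDyrk2 and 7.53 with siNeg. Both Adamts2 and Loxl4 thus differed more between siNeg and WT than within either Dyrk2 comparison.

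Of the 6 measured of 10 receptors, 0 reached 1.5-fold on FPKM + 1 for Dyrk2-KO against WT and 1 was higher with siDyrk2 (3.77% of all genes). That gene, Itga11, the integrin chain through which fibroblasts grip type I fibres, was at 49.7 FPKM in the Dyrk2-KO library and 54.3 in WT, and at 95.6 with siDyrk2 and 61.1 with siNeg. Of 10 measured turnover genes out of 14, 1 was at least 1.5-fold higher on FPKM + 1 and 1 lower in the Dyrk2-KO library (2.58% and 4.04% of all genes), and 2 were higher and 0 lower with siDyrk2 (3.77% and 2.73%). For siNeg against WT 0 were higher and 1 was lower (1.41% and 2.37%). That gene, the gelatinase Mmp9, was at 3.94 FPKM in the Dyrk2-KO library and 2.5 in WT, and at 0.86 with siDyrk2 and 0.48 with siNeg, with the largest ratio of the list at a log2 of -1.24. The collagenase Mmp13, 1 of the 2 genes higher with siDyrk2, was at 1.78 FPKM there and 0.64 with siNeg. It was at 0.99 FPKM in the Dyrk2-KO library and 0.77 in WT. Mmp13 thus passed 1 FPKM with siDyrk2 alone, and its higher value there says nothing beyond the filter. Mmp2, also a gelatinase, was at 482 FPKM in the Dyrk2-KO library and 273 in WT, and at 278 with siDyrk2 and 253 with siNeg. The proteinase inhibitor Timp3 was at 378 FPKM in the Dyrk2-KO library and 574 in WT, and at 469 with siDyrk2 and 539 with siNeg. Timp2 was at 597 FPKM in the Dyrk2-KO library and 453 in WT, and at 510 with siDyrk2 and 336 with siNeg. The turnover list had medians of 0.16 for Dyrk2-KO against WT (8 of 10 higher) and 0.17 for siDyrk2 against siNeg (7 of 10 higher, Mmp13 among them), and -0.11 for siNeg against WT (8 of 10 lower). Of all 12817 genes 5607 were higher for Dyrk2-KO against WT, 6963 were higher for siDyrk2 against siNeg and 6533 were lower for siNeg against WT.

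The TGF-beta axis, the best known inducer of fibrillar collagen genes, had a median above that of all genes with siDyrk2. The 11 measured genes had a median log2 ratio of -0.07 for Dyrk2-KO against WT (7 lower) and 0.28 for siDyrk2 against siNeg (6 higher, 5 lower), where all genes had -0.02 and 0.02. At 1.5-fold on FPKM + 1, 0 of 11 differed in the Dyrk2-KO library (2.58% of all genes higher, 4.04% lower), while 1 was higher and 1 lower with siDyrk2 (3.77% and 2.73%). The ligand gene Tgfb2 was at 5.25 FPKM in the Dyrk2-KO library and 4.99 in WT, and at 8.10 with siDyrk2 and 4.65 with siNeg. Smad3, which carries the signal to the nucleus, was at 24.3 FPKM in the Dyrk2-KO library and 30.5 in WT, and at 20.4 with siDyrk2 and 31.7 with siNeg. Smad3 was thus lower in both libraries with Dyrk2 lost, at least 1.5-fold with siDyrk2.

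**Figure D5:**
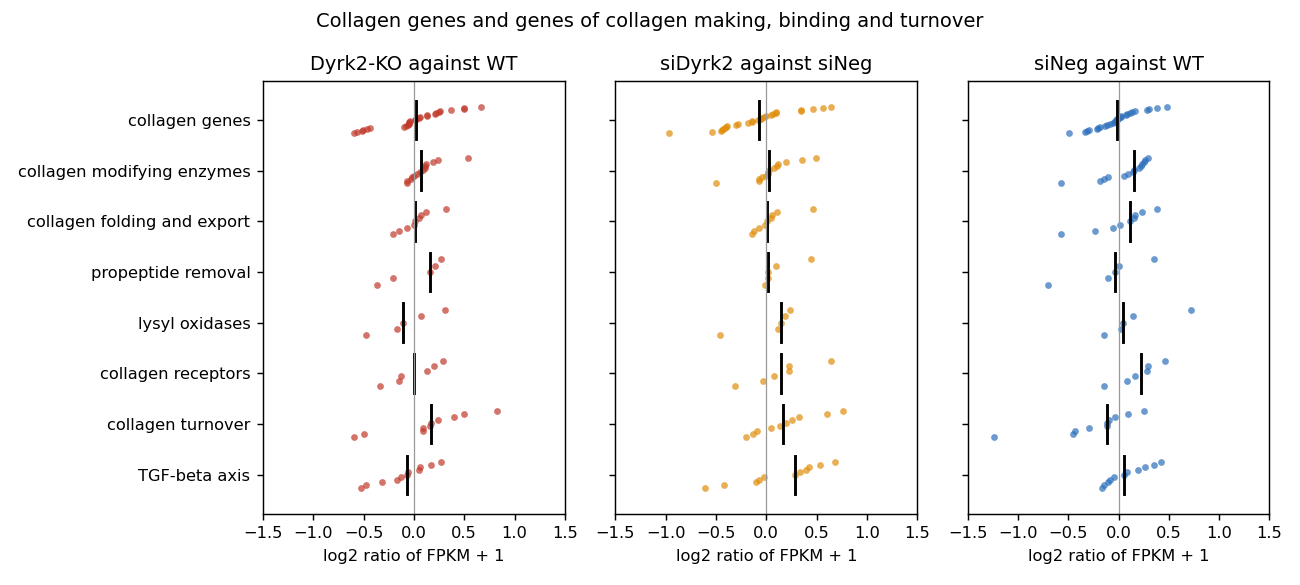
Log2 ratio of FPKM + 1 (horizontal axis) of each measured gene, by list down the page, for Dyrk2-KO against WT (left), siDyrk2 against siNeg (middle) and siNeg against WT (right). Points are genes and the black bar is the list's median, which for the TGF-beta axis is -0.07, 0.28 and 0.06 in the 3 panels.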

How the data were processed

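RNA-seq of 4 fibroblast libraries, 1 per group, was analysed from gene-level tables. The authors deposited FPKM with 2 decimals and each gene's exonic length, per the file headers. Cutadapt 1.9.1, HISAT2 2.0.1 and the mouse build GRCm38 are named per the submitters' processing notes, while no source used here names the counting program or its annotation. Fragments were estimated from FPKM, length and the smallest depth that made genes of at most 200 bases whole. They served for counting intervals (95%) and for the floor of 3 fragments, which for a gene of 2 kb was 0.0627 to 0.0751 FPKM. No count model was run, since FPKM are not counts and each group held 1 library. Of the gene IDs, 55480 had a GENCODE M21 symbol and 93 did not.

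Genes with at least 1 FPKM in any library were compared as the difference of log2(FPKM + 1), which understates the change of low genes, and called at 2-fold or 1.5-fold. Plain ratios of FPKM carry counting intervals, which cover counting error only and not cultures or handling. The 1.25-fold rule and the group of genes with a mean of at least 100 FPKM were added after the values were seen. The collagen genes and the gene lists were chosen with earlier results of these data known. From the TGF-beta list 1 gene is not reported here and was left out of its counts and medians. Values in every library are given for collagen genes at least 1.5-fold different in any comparison, for the 10 with the highest mean and for chain pairs. In the lists of collagen making, binding and turnover and of the TGF-beta axis, they are given for genes at least 1.5-fold different whose higher library reached 5 FPKM. Cell type markers and genes of dividing cells are given mostly as sums, and those that pass the same rule are not all named. Other genes named were chosen after their values were seen. Interval coverage and recovery of known folds were tested on simulated counts of known depth that held counting error alone. That simulation did not try the depth estimate and held no spread between cultures, so it does not bear on either. Alternatives were pseudocounts of 0.1 and 5 FPKM, other filters, 2 rescalings and a background of protein-coding genes. Promoter windows came from RefSeq, GRCm38.p6, matched by symbol for 22 of the 28 reported genes. Python 3.11.15, pandas 2.3.3, numpy 2.4.6, scipy 1.17.1 and matplotlib 3.10.9 were used.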

Additional observations from a re-analysis of the deposited data

Results flagged for a closer look

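Col14a1, Col10a1 and Col8a1 were each at least 1.25-fold different in both Dyrk2 comparisons and in opposite directions. The log2(FPKM + 1) ratio of Col14a1 was 0.50 for Dyrk2-KO against WT and -0.45 for siDyrk2 against siNeg, a gap of 0.96. That of Col10a1 was -0.47 for Dyrk2-KO against WT and 0.46 for siDyrk2 against siNeg, a gap of -0.93. That of Col8a1 was -0.52 for Dyrk2-KO against WT and 0.35 for siDyrk2 against siNeg, a gap of -0.87. With 1 library per group these gaps were not tested. For all 3 genes the siNeg and WT libraries also differed, with log2 ratios of siNeg against WT of -0.34 for Col14a1, -0.49 for Col10a1 and 0.38 for Col8a1.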

How the results depend on the processing

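No paired analysis was possible because each group held 1 library and the labels give no shared replicate numbers. For the same reason no replicate could be left out. No ratio of the collagen genes at least 1.25-fold different (10 for Dyrk2-KO against WT, 13 for siDyrk2 against siNeg, 4 for siNeg against WT) turned its sign under other pseudocounts or scalings. With a pseudocount of 0.1 FPKM, 1 collagen gene was 2-fold higher in the Dyrk2-KO library, 2 were 1.5-fold higher and 4 lower. With siDyrk2 1 was then 2-fold lower and 2 were 1.5-fold higher, and for siNeg against WT 1 was 2-fold lower and 3 were 1.5-fold lower. With a pseudocount of 5 FPKM, 0 were 1.5-fold higher in the Dyrk2-KO library, and 0 higher and 0 lower with siDyrk2. Over genes with 1 FPKM in every library, the collagen median was -0.044 for Dyrk2-KO against WT, with 0 genes 1.5-fold higher, and -0.14 for siDyrk2 against siNeg. Over genes with 10 FPKM in any library, 0 were 1.5-fold higher in the Dyrk2-KO library, and with siDyrk2 the median was -0.14, with 0 higher and 0 lower. After rescaling to an equal median 0 were 1.5-fold lower in the Dyrk2-KO library. At 1.25-fold among genes with a mean of at least 100 FPKM, a count added after the values were seen, 0 collagen genes were higher and 2 lower in the Dyrk2-KO library, and 0 higher and 4 lower with siDyrk2. Counted as fragments, the collagen share was 8.03% in the Dyrk2-KO library, 7.73% in WT, 5.99% with siDyrk2 and 7.54% with siNeg. The number of all genes 1.5-fold higher in the Dyrk2-KO library was 331, against 609 with a pseudocount of 0.1 FPKM and 87 with 5 FPKM, and the number lower was 518, against 868 and 114. For siDyrk2 the number higher was 483, against 874 and 111, and the number lower 350, against 616 and 105. For siNeg against WT the number higher was 181, against 412 and 20, and the number lower 304, against 678 and 56. Weakly expressed genes, Col6a6, Col2a1, Col26a1, Col15a1, Col10a1, Col7a1 and Col23a1 among them, are where pseudocount and depth bear most.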
